A study of Mus musculus with 50 samples.

Results

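The colon of mice that lacked both FADD and RIPK3 in intestinal epithelial cells (FADD IEC-KO RIPK3 IEC-KO, the double knockout) was compared with the colon of floxed mice (Casp8 fl/fl). The arrays were chosen by the genotype and the number in their titles, 88, 93, 112, 113 and 123 for the double knockout and 86, 91, 98, 105 and 119 for Casp8 fl/fl. These are 10 of the 50 arrays of the series, 5 in each group, and all 19494 genes with a named probe set were tested.

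Death receptors recruit caspase-8 through the adaptor FADD, and active caspase-8 cuts RIPK1 and RIPK3 and so holds back necroptosis, a lytic form of cell death. When caspase-8 is not recruited, RIPK3 can phosphorylate MLKL, which breaks the plasma membrane, and the nucleic acid sensor ZBP1 can engage RIPK3 from within the cell. In the gut, loss of FADD from the epithelium is known to cause epithelial cell death, loss of Paneth cells and colitis.

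The series measured colon RNA of 8 mouse genotypes on Affymetrix arrays. IEC-KO stands for deletion in intestinal epithelial cells. The Cre driver is not named in the labels, and in published work with epithelial deletion of Fadd it was villin-Cre, which is active in the epithelium of small intestine and colon. The control is floxed for another gene than those deleted in the double knockout, and its labels name neither a Cre nor a floxed Fadd or Ripk3 allele. Floxed Fadd mice (Fadd fl/fl, 5 arrays) and FADD IEC-KO mice (2 sets of 5 arrays) were used for values side by side, and apart from these genotypes the labels name no further allele or agent. The series text gives an age of 10 to 12 weeks and each array's description 11 weeks, while a further label counts up by a week from array to array and was not used. The mice were kept on a regular diet under specific pathogen-free conditions. Numbers in the titles fall in 2 series, from 1 to 30 and from 86 to 124, whose meaning the labels do not give. The double knockout, Casp8 fl/fl and 1 set of FADD IEC-KO arrays (here the single knockout) belong to 86 to 124, and Fadd fl/fl and the other FADD IEC-KO set to 1 to 30. Fadd fl/fl therefore differs from the double knockout in number series too, and the number series and the floxed line cannot be told apart there. Titles give a number to each array but do not say that they are separate mice, so the p-values measure the spread between these samples.

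Whole colon tissue was extracted, so that fewer cells of a type and less RNA per cell cannot be told apart. The epithelial identity of the tissue was borne out by Aqp4, a water channel of colon surface cells, and Guca2a, the guanylin gene, whose lowest signals over the 10 arrays were 8.67 and 10.15 log2 units. Defining genes of smooth muscle and matrix were present too, with list means of at least 9.82 for 18 smooth muscle genes and at least 8.18 for 21 fibroblast and matrix genes. Over the genes tested, the medians of the 10 arrays ran from 6.51 to 6.56 log2 units, and correlations between any pair of the 10 arrays from 0.986 to 0.993. By the Y-linked genes, 4 of 5 double knockout mice and 2 of 5 Casp8 fl/fl mice were male. Precision is limited by the 5 arrays of each group.

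The deleted genes came before all others. Fadd stood at 6.37, 6.31, 5.91, 6.39 and 6.20 in the double knockout (arrays 88, 93, 112, 113 and 123) and at 7.50, 7.17, 7.26, 7.23 and 7.37 in Casp8 fl/fl (arrays 86, 91, 98, 105 and 119), all as log2 signals. Every double knockout array lay below every floxed array. The difference was -1.07 (SE 0.11, limma adjusted p = 6.74e-08), and it was -1.14 against Fadd fl/fl. Fadd signal remained in all 5 double knockout arrays, and the labels do not say whether its probes read the deleted part of the gene.

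Ripk3, the kinase deleted with it, was not lower than in Casp8 fl/fl. Its signals were 6.49, 6.65, 6.80, 6.66 and 6.80 in the double knockout and 6.72, 6.36, 6.82, 6.46 and 6.62 in the floxed arrays, and the groups overlapped. The difference was 0.09 (95% interval of the fit -0.42 to 0.59, limma adjusted p = 0.944). In the single knockout Ripk3 stood at 7.94, 7.39, 8.79, 7.98 and 8.36, above every double knockout and Casp8 fl/fl array. The double knockout was lower than the single knockout by -1.41 (limma adjusted p = 0.00402). Mlkl and Zbp1, which were not deleted, also had lower signals in that comparison (-0.56 and -0.88, neither past the threshold) and Tgtp2 fell there, so the Ripk3 signal is no check of the Ripk3 deletion.

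Casp8, the floxed gene of the control, was at 10.56 ± 0.15 (SD, n = 5) in the double knockout and 10.50 ± 0.15 in Casp8 fl/fl, a difference of 0.06 (limma adjusted p = 0.891). Mlkl, the executor of necroptosis, was at 8.62 ± 0.14 against 8.14 ± 0.23, and Zbp1 at 6.36 ± 0.23 against 5.77 ± 0.15. For both, all double knockout arrays lay above all floxed arrays, and both missed the threshold, at differences of 0.48 (limma adjusted p = 0.275) and 0.59 (limma adjusted p = 0.416). The single knockout differed from the same floxed arrays by 1.04 for Mlkl and 1.48 for Zbp1. Over the 20 measured genes of necroptosis and death receptors, Fadd passed and no other member did, with a median difference of 0.09 against -0.01 over all genes tested. At an unadjusted p under 0.05, 5 of the 20 (25.0%) were higher, beside 6.12% of all genes, and 3 (15.0%) were higher without overlap, beside 1.68%. Under the alternative fits 3 to 5 were higher at that p. The death ligand gene Tnfsf10, chosen after its values were seen, was another member without overlap, at 0.53 (limma adjusted p = 0.340).

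Few genes separated the double knockout from floxed mice. At an adjusted p under 0.05 in limma, 9 genes were higher (0.0462% of the 19494 tested) and 6 lower (0.0308%), 15 in all (0.0769%), with Fadd among the lower. Against the same floxed arrays the single knockout had 1326 genes higher (6.8%) and 828 lower (4.25%). A difference of at least 0.5 log2 units in either direction was measured for 115 genes (0.59%) in the double knockout and for 1075 genes (5.51%) in the single knockout. In the double knockout minus the single knockout, 31 genes were higher (0.159%) and 116 lower (0.595%), 147 together. That count was 24 to 61 when any double knockout array was left out, and 34, 26 and 411 without FADD IEC-KO array 117, 124 or 95. The single knockout against floxed went from 2154 genes to 1356 without array 117. Without the threshold's adjustment, 1193 genes (6.12%) were higher and 902 (4.63%) lower at p under 0.05 in the double knockout. The groups of arrays did not overlap for 328 genes (1.68%) with higher and 162 (0.831%) with lower signal. Leaving out double knockout array 112 or 123 left Fadd alone past the threshold, and without array 93 or 113 of the double knockout 9 or 8 genes passed. Without floxed array 98, 105 or 119 there were 4, 5 or 3, and without array 88 of the double knockout or floxed array 86 or 91 there were 11, 14 or 12. With sex as a covariate 14 of the 15 passed, and with a clock score as a covariate all 15 did.

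**Figure D1:**
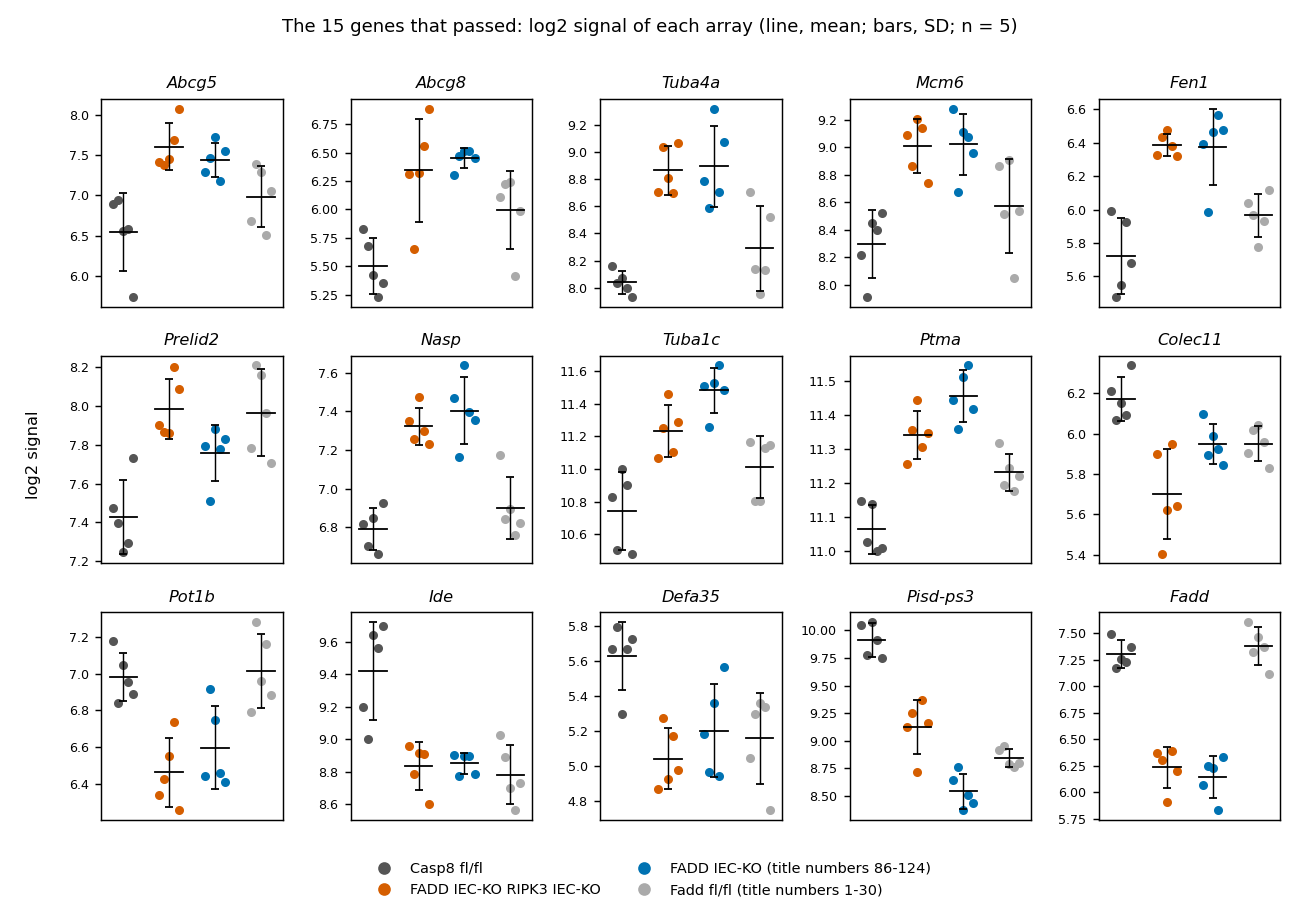
Log2 signal (vertical axis, its own scale for each gene) of the 15 genes that passed in the double knockout against Casp8 fl/fl, with 5 arrays per group as points, the mean as a line and the SD as bars. Fadd is low in both knockouts, the means of Nasp, Fen1 and Tuba4a are higher in both knockouts than in either floxed group, and in Prelid2, Ide and Defa35 Fadd fl/fl lies nearer to the knockouts than to Casp8 fl/fl.

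Among the genes that were higher, 3 act in DNA replication or histone supply (Nasp, Fen1 and Mcm6). Nasp encodes a histone chaperone that handles newly made histones, and its signals were 7.35, 7.26, 7.47, 7.30 and 7.23 in the double knockout against 6.82, 6.70, 6.85, 6.66 and 6.93 in Casp8 fl/fl. All 5 double knockout arrays lay above the floxed ones. Nasp rose by 0.53 (SE 0.10, limma adjusted p = 0.0304) and differed by 0.42 from Fadd fl/fl, where it missed (limma adjusted p = 0.170).

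Fen1, the flap endonuclease that trims Okazaki fragments, was at 6.33, 6.43, 6.48, 6.38 and 6.32 in the double knockout and at 5.99, 5.47, 5.55, 5.93 and 5.68 in the floxed arrays. The knockout arrays were close to each other, with an SD of 0.07 against 0.23. The gene rose by 0.66 (SE 0.13, limma adjusted p = 0.0304) and differed by 0.42 from Fadd fl/fl, where it missed (limma adjusted p = 0.354).

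Mcm6 encodes a subunit of the ring-shaped replicative helicase MCM2-7. It stood at 9.09, 8.87, 9.21, 9.14 and 8.74 in the double knockout and at 8.21, 7.91, 8.45, 8.40 and 8.53 in Casp8 fl/fl, again without overlap. It rose by 0.71 (SE 0.15, limma adjusted p = 0.0444), a call that no fit without 1 of the 10 arrays kept. Ptma, the gene of the acidic nuclear protein prothymosin alpha, was at 11.34 ± 0.07 (SD, n = 5) against 11.06 ± 0.07 and rose by 0.28 (limma adjusted p = 0.0391), a small change with narrow groups. From Fadd fl/fl it differed by 0.11 and missed. Of the 10 fits without 1 array, 2 kept the call of Ptma, 3 that of Fen1 and 7 that of Nasp. In the single knockout these 4 genes differed from Casp8 fl/fl by 0.61 (Nasp), 0.65 (Fen1), 0.72 (Mcm6) and 0.39 (Ptma).

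The stretch before the start of Mcm6 is shown since the E2F factors are known to drive MCM genes through sites of the kind TTTGGCGC or TTTCCCGC. Those letters were searched on both strands in the 300 bases around the start site (250 before to 50 after) of the genes with a RefSeq promoter window. TTTGGCGC was found in 0.778% of 15683 windows and in 3 of 22 from the proliferation list (Mcm6, Mcm3 and Mcm5), and TTTCCCGC in 1.69% of all and in 2 of those 22 (Mcm3 and Cdc6). Mcm6 had the first motif at 2 places, in capitals below, in the 150 bases before its start on the minus strand (GRCm38.p6, chr1:128359706-128359855, RefSeq). A match is a description of the letters and does not show that a factor binds.
Mcm6: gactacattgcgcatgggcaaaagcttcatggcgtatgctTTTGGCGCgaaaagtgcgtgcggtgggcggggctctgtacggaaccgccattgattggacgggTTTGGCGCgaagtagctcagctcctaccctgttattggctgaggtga

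The wider list of 25 measured proliferation genes was shifted in the same direction. All 25 had a difference above 0, from 0.11 for Birc5 to 0.71 for Mcm6, and the median was 0.40 against -0.01 over all genes tested. Only Mcm6 passed. At an unadjusted p under 0.05, 15 (60.0%) were higher and none lower, beside 6.12% of all genes, and 6 (24.0%) had no overlap, beside 1.68%. Under the alternative fits 9 to 18 were higher at that p, with medians of 0.31 to 0.45. The mean over the list ran from 7.40 to 7.62 in the floxed arrays and from 7.66 to 8.13 in the double knockout. Against Fadd fl/fl the median was 0.27 with 10 members higher at an unadjusted p under 0.05 (4.05% of all genes there), and for the single knockout against Casp8 fl/fl it was 0.56 with 17 members past the adjusted threshold.

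The proliferation genes named next were chosen after their values were seen, and they did not all move alike. Mcm5 differed by 0.58 (limma adjusted p = 0.153), Mcm3 by 0.51 (limma adjusted p = 0.171) and Cdc6, which loads the helicase, by 0.50 (limma adjusted p = 0.187), each without overlap. Mki67, the common marker of cycling cells, differed by 0.17 (limma adjusted p = 0.734), and Birc5, Aurkb and Bub1 of mitosis by 0.11 to 0.18. Of the 8 genes of the MCM family, chosen after values were seen, 8 had a difference above 0, with a median of 0.42. Among 27 genes of chromatin assembly and the replication fork, chosen in the same way, 26 had a difference above 0 with a median of 0.27. The largest was Chaf1b, a subunit of the chromatin assembly factor CAF-1, at 6.52 ± 0.28 (SD, n = 5) against 5.63 ± 0.17, a difference of 0.89 (limma adjusted p = 0.0722). The chromatin remodeler gene Hells differed by 0.77 (limma adjusted p = 0.106) and Uhrf1, which guides maintenance of DNA methylation, by 0.52 (limma adjusted p = 0.0848). Fitted on the 10 arrays alone, Chaf1b passed (limma adjusted p = 0.04997, n = 5 against 5), and Nasp, Fen1 and Mcm6 did not.

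**Figure D2:**
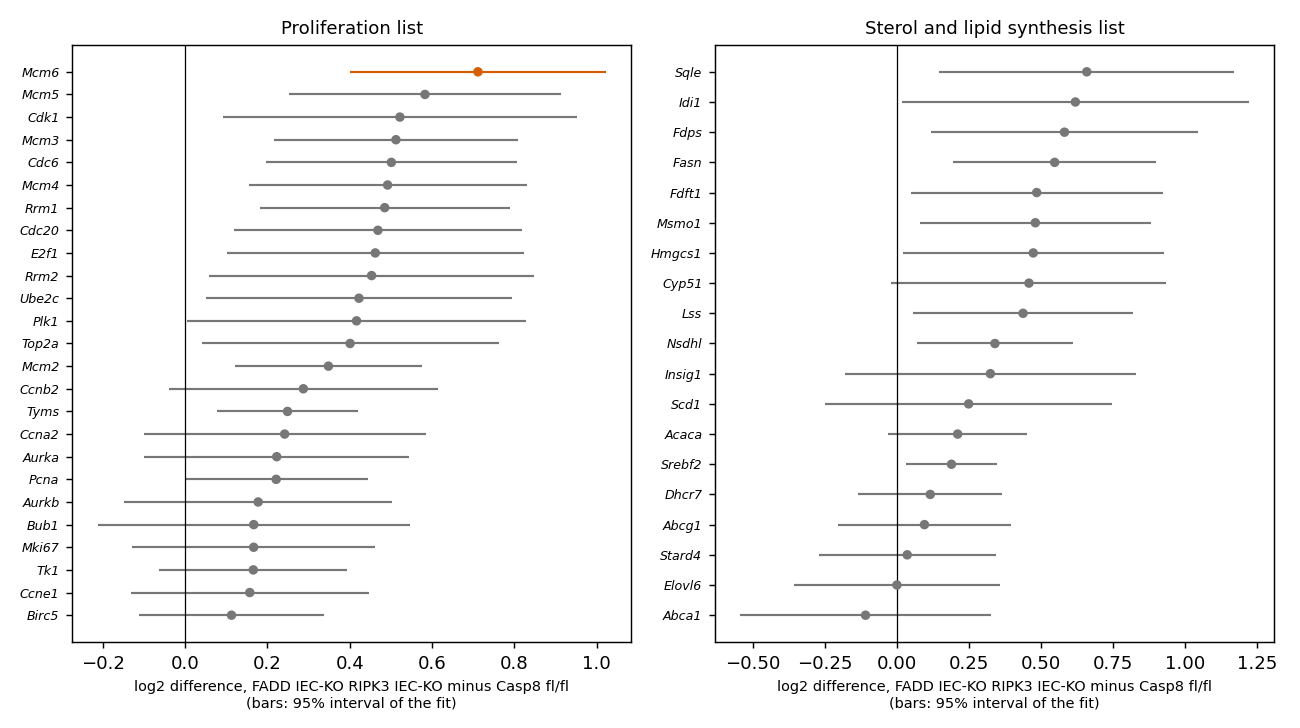
Log2 difference of the double knockout minus Casp8 fl/fl (horizontal axis) for each measured gene of the proliferation list (left) and of the sterol and lipid synthesis list (right), with the 95% interval of the fit as bars and the gene that passed in orange. All 25 proliferation genes lie to the right of 0 and Mcm6 alone passed, and 17 of 19 sterol and lipid genes lie to the right with none past the threshold.

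A pair of alpha-tubulin genes rose as well. Tuba4a was at 8.71, 9.04, 8.81, 8.70 and 9.07 in the double knockout and at 8.16, 8.03, 8.07, 8.00 and 7.93 in Casp8 fl/fl. The gap between the groups was wider than the spread within either. It rose by 0.83 (SE 0.17, limma adjusted p = 0.0304), and it was the only gene besides Fadd among the 15 that also passed with the 10 arrays alone. From Fadd fl/fl it differed by 0.58 and missed (limma adjusted p = 0.314). Tuba1c was at 11.23 ± 0.16 (SD, n = 5) against 10.74 ± 0.24 and rose by 0.49 (limma adjusted p = 0.0367). Of 15 tubulin genes, grouped after values were seen, these 2 passed, 13 had a difference above 0 and the median was 0.17. Tubb4b, a beta-tubulin, differed by 0.50 (limma adjusted p = 0.0616). Alpha-tubulin genes are near-identical in sequence, so that probes may read more than 1 of them.

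Abcg5 and Abcg8, neighbours on chromosome 17 that encode the 2 sides of the sterolin transporter, which pumps plant sterols and cholesterol out of the enterocyte, rose together. Abcg5 was at 7.42, 7.38, 7.45, 7.69 and 8.08 in the double knockout and at 6.90, 6.95, 6.56, 6.58 and 5.73 in Casp8 fl/fl, without overlap. It had the largest rise among the genes that passed, at 1.06 (SE 0.22, limma adjusted p = 0.0321). Abcg8 was at 6.31, 5.65, 6.32, 6.55 and 6.89 against 5.83, 5.68, 5.43, 5.23 and 5.36. Double knockout array 93 lay within the floxed range, and the gene is named because it passed beside its partner, at 0.84 (SE 0.18, limma adjusted p = 0.0367). Against Fadd fl/fl the differences were 0.62 and 0.35 and neither passed. Casp8 fl/fl was itself lower than Fadd fl/fl by -0.44 for Abcg5 and -0.49 for Abcg8. With sex as a covariate Abcg5 passed and Abcg8 did not.

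Both genes are read outward from 1 short shared stretch, which is shown because they moved together. It lies between their start sites and is 109 bases long (GRCm38.p6, chr17:84683012-84683120, plus strand, RefSeq). GATA factors are known to bind AGATAA, whose letters were searched on both strands and are marked in capitals as TTATCT, the reverse complement. There were 2 matches in this stretch, and 3 in the 300-base window of each gene, windows that overlap. At least 1 match was found in 11.139% of the 15683 windows and 3 or more in 0.1148%.
Abcg5-Abcg8: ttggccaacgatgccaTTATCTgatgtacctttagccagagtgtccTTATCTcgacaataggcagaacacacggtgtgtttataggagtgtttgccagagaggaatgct

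The enzymes that make sterols and fatty acids, the other side of sterol balance, had higher signals without passing. Of 19 measured genes, 0 passed in limma, 17 had a difference above 0, and 10 (52.6%) were higher, beside 6.12% of all genes, and none lower at an unadjusted p under 0.05. Under the alternative fits 0 passed too, with 3 to 13 higher at an unadjusted p under 0.05. The median was 0.34, against 0.23 for the double knockout minus Fadd fl/fl and 0.49 for the single knockout minus Casp8 fl/fl. Sqle, squalene epoxidase, was at 9.17, 8.70, 8.33, 8.86 and 8.50 against 8.30, 7.19, 8.10, 7.74 and 8.94, a difference of 0.66 (limma adjusted p = 0.335). Idi1, which makes an isoprenoid building block, differed by 0.62 (limma adjusted p = 0.450). In both, floxed array 119 had the highest signal of its group and lay within the knockout range. Fasn, fatty acid synthase, chosen after values were seen, was the member without overlap, at 0.55 (limma adjusted p = 0.222).

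The genes that were lower shared no list. Pot1b, a telomere-binding protein, was at 6.34, 6.43, 6.55, 6.74 and 6.26 in the double knockout and at 7.17, 6.84, 7.05, 6.96 and 6.89 in Casp8 fl/fl. The groups did not overlap, and the fall of -0.52 (SE 0.11, limma adjusted p = 0.0436) had nearly the same size against Fadd fl/fl, -0.55, where it missed (limma adjusted p = 0.0709). Colec11, a collectin of innate immunity, was at 5.70 ± 0.22 (SD, n = 5) against 6.17 ± 0.11 and fell by 0.47 (limma adjusted p = 0.0367), and against Fadd fl/fl the difference was -0.25.

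Some of the 15 genes differed between the floxed groups too. The insulin-degrading enzyme gene Ide was at 8.96, 8.79, 8.91, 8.91 and 8.60 in the double knockout and at 9.20, 9.00, 9.64, 9.56 and 9.70 in Casp8 fl/fl, a difference of -0.59 (limma adjusted p = 0.0304). In Fadd fl/fl it was at 9.03, 8.89, 8.70, 8.56 and 8.73, where the difference was 0.05. Pisd-ps3, a pseudogene, was at 9.12 ± 0.24 (SD, n = 5) against 9.91 ± 0.15 and fell by 0.79 (limma adjusted p = 0.0321), whereas Fadd fl/fl was at 8.84 ± 0.08, below the double knockout.

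Defa35, an alpha-defensin gene, fell by 0.59 (limma adjusted p = 0.0444) and differed by -0.11 against Fadd fl/fl. Alpha-defensin genes are near-identical, and Defa3 and Defa17 had the same values on every array, so these signals may be shared between genes. Defa2 and Defa33 had the same means, SDs and differences as each other, as did Defa20 and Defa32. Of 22 alpha-defensins, grouped after values were seen and with these repeats counted, Defa35 alone passed and the median was -0.11. Prelid2 rose by 0.56 (limma adjusted p = 0.0304) and differed by 0.02 against Fadd fl/fl. Casp8 fl/fl minus Fadd fl/fl passed for Ide (0.64), Pisd-ps3 (1.07) and Prelid2 (-0.54). It missed for Defa35 (0.47), and for Colec11 (0.22), Tuba1c (-0.27) and Ptma (-0.17), as for Abcg5 and Abcg8. It also missed for Mcm6 (-0.28), Tuba4a (-0.25), Fen1 (-0.24), Nasp (-0.11), Fadd (-0.07) and Pot1b (-0.03). Against Fadd fl/fl the double knockout had 2 genes past the threshold (0.0103%), Fadd and Aqp4. Aqp4 was higher by 1.38 (limma adjusted p = 0.0187), and against Casp8 fl/fl it differed by 0.78 without overlap and missed (limma adjusted p = 0.228).

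The 12 genes with the largest rises in FADD IEC-KO of the title numbers 1 to 30 did not pass in the double knockout. Those arrays are in neither group compared, but they enter the shared spread of the fit. Genes uneven in them have wide intervals, so a miss in that fit tells little about them. The SE of S100a8 was 0.89 there and 0.21 with the 10 arrays alone, and that of Retnlb 0.79 and 0.14. The 12 genes were Retnlb, Clca4b, Ido1, Pla2g2a, Nos2, Plet1, S100a8, Tgtp2, Il1b, Dhrs9, Duoxa2 and Serpina3n. Their differences from Casp8 fl/fl ran from -0.33 (Retnlb) to 1.01 (Pla2g2a) in the double knockout, with 0 past the threshold in limma in any fit run and 0 at an unadjusted p under 0.05 in the fit of all arrays. With the 10 arrays alone the 95% intervals of 3 of the 12 did not hold 0, those of Pla2g2a (0.48 to 1.55), Duoxa2 (0.38 to 1.31) and Retnlb (-0.63 to -0.03). In the single knockout they ran from 1.64 (Serpina3n) to 3.16 (Clca4b).

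S100a8, a calprotectin gene of neutrophils, was at 3.76, 3.38, 3.89, 2.71 and 2.75 in the double knockout and at 3.32, 3.07, 3.00, 2.94 and 3.46 in Casp8 fl/fl, while the single knockout was at 3.22, 3.05, 9.70, 2.99 and 6.79. The single knockout was thus uneven, with high signal in some arrays only, and the shared spread of the fit is wide for such genes. Its 95% interval for the double knockout was -1.65 to 1.93 around a difference of 0.14, and with the 10 arrays alone it was -0.32 to 0.60.

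Retnlb, which encodes a bactericidal protein of goblet cells, was at 2.91, 3.21, 3.20, 3.06 and 2.99 against 2.98, 3.61, 3.84, 3.35 and 3.22, all near the lower end of the scale. Tgtp2, an interferon-induced GTPase, was at 5.32 ± 0.23 (SD, n = 5) against 5.21 ± 0.47 in floxed and 8.06 ± 1.30 in the single knockout. The double knockout was lower than the single knockout by -2.74 (limma adjusted p = 0.0208). Serpina3n, an acute-phase serpin, was lower by -1.80 in the same comparison (limma adjusted p = 0.0288), and the other 10 genes missed there with differences of -2.77 to -1.25.

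A few of the 12 stood a little above the floxed arrays. Pla2g2a, the antibacterial phospholipase, was at 6.76, 6.01, 7.35, 6.53 and 7.06 against 4.92, 5.85, 6.03, 6.09 and 5.75, with overlap at array 93 only, and missed at 1.01 (limma adjusted p = 0.502). Duoxa2, the maturation factor of the oxidase DUOX2, was at 7.16, 8.20, 7.96, 6.92 and 8.03 against 6.65, 6.99, 6.99, 6.61 and 6.81, a difference of 0.84 (limma adjusted p = 0.528). Clca4b had 1 high array, number 112 at 9.82, and the others from 7.31 to 7.65, within the floxed range.

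**Figure D3:**
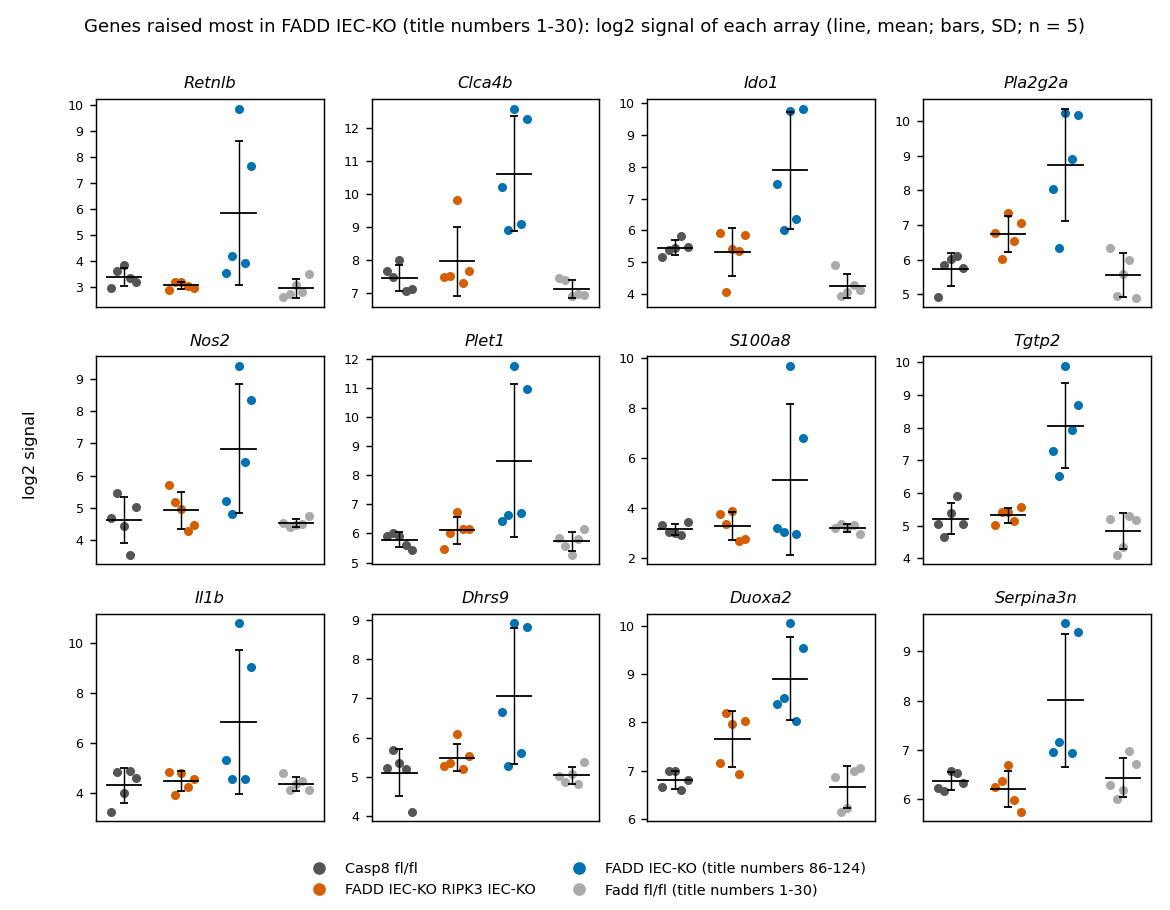
Log2 signal (vertical axis, its own scale for each gene) of the 12 genes with the largest rises in FADD IEC-KO of the title numbers 1 to 30, in 4 groups of 5 arrays, with points for arrays, a line for the mean and bars for the SD. Double knockout arrays overlap the Casp8 fl/fl arrays in all 12 genes, and the single knockout is high in some arrays, such as S100a8 at 9.70 and 6.79.

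The whole sets of genes called in those other arrays, which enter the shared spread of the fit, were read in the double knockout too. FADD IEC-KO against Fadd fl/fl (title numbers 1 to 30) raised 1674 genes (8.59%) and lowered 1976 (10.1%). Of those raised, 7 passed as higher in the double knockout and none as lower, and 417 (24.9%) were higher and 11 (0.657%) lower at an unadjusted p under 0.05, beside 6.12% and 4.63% of all genes. Their median difference was 0.14, against 0.30 for the single knockout on the same floxed arrays. The 7 genes were Abcg5, Fen1, Mcm6, Nasp, Ptma, Tuba1c and Tuba4a, which is 77.8% of the 9 genes higher in the double knockout and 0.418% of the 1674.

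Among the lowered genes, 3 passed as lower in the double knockout (Fadd, Pisd-ps3 and Pot1b), and 131 (6.63%) were lower and 8 (0.405%) higher at an unadjusted p under 0.05. The share lower lies near the 4.63% of all genes, and the share higher compares with 6.12%. Their median was -0.07, against -0.01 over all genes. These 3 are 50.0% of the 6 genes lower in the double knockout and 0.152% of the 1976.

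**Figure D4:**
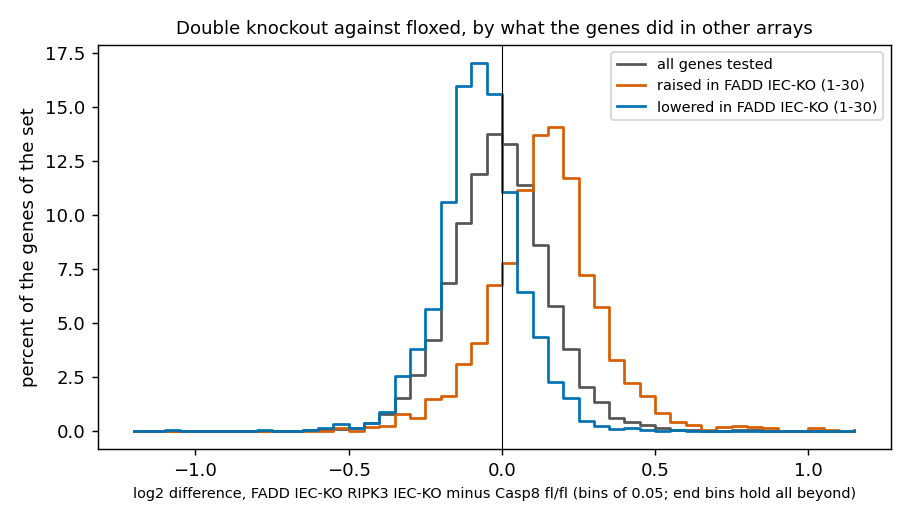
Percent of genes (vertical axis) by log2 difference of the double knockout minus Casp8 fl/fl (horizontal axis, bins of 0.05), for all 19494 genes and for the 1674 raised and 1976 lowered in FADD IEC-KO of the title numbers 1 to 30. The raised set is shifted to the right with a median of 0.14 and the lowered set slightly to the left with a median of -0.07.

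Genes of the interferon-gamma response and antigen presentation had a smaller median difference in the double than in the single knockout. Of 30 measured genes, 23 had a difference above 0 and 7 below, with a median of 0.11 against -0.01 over all genes. In limma 0 passed, and 0 were higher or lower at an unadjusted p under 0.05 in the fit of all arrays. In the single knockout 25 of the 30 passed as higher, with a median of 1.28, and 9 of the 30 were lower in the double than in the single knockout. No member passed under any alternative fit, though up to 7 were higher at an unadjusted p under 0.05. The groups did not overlap for 4 members (13.3%), all higher, beside 1.68% of all genes. The immunoproteasome subunit gene Psmb8 was at 7.21, 7.26, 7.29, 7.44 and 7.46 against 6.91, 6.53, 6.98, 6.91 and 6.97, a difference of 0.47 (limma adjusted p = 0.625). Igtp, a GTPase against intracellular pathogens, differed by 0.63 (limma adjusted p = 0.651). The fit of all arrays is wide for both, with SEs of 0.31 for Psmb8 and 0.43 for Igtp. With only the arrays compared these SEs were 0.10 and 0.13. The 95% intervals there were 0.25 to 0.69 for Psmb8 and 0.34 to 0.91 for Igtp, above 0, though neither gene passed. In the double minus the single knockout, Psmb8 was lower by -1.18 (limma adjusted p = 0.0496) and Igtp differed by -1.64 (limma adjusted p = 0.0536).

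Type I interferon-stimulated genes had higher signals in the double knockout without passing. Of 27 measured genes, 26 had a difference above 0 with a median of 0.25, and 0 passed in limma. At an unadjusted p under 0.05, 6 (22.2%) were higher, beside 6.12% of all genes, and none lower, and under the alternative fits 5 to 11 were higher. Irf7, the transcription factor that amplifies interferon production, was at 8.36, 9.05, 8.68, 8.96 and 9.04 in the double knockout and at 8.07, 7.75, 7.84, 8.16 and 7.20 in Casp8 fl/fl, without overlap. It missed at 1.01 (SE 0.25, limma adjusted p = 0.106), and it differed by 1.03 from Fadd fl/fl and by 0.95 in the single knockout against Casp8 fl/fl. Rtp4, an interferon-induced chaperone, was at 5.59, 6.06, 5.27, 5.71 and 5.46 against 4.63, 4.47, 4.86, 4.96 and 4.80, a difference of 0.87 (limma adjusted p = 0.326). It too had no overlap. Against Fadd fl/fl the list's median was 0.32, with 10 members higher at an unadjusted p under 0.05 (4.05% of all genes there). In the single knockout against Casp8 fl/fl 13 members passed with a median of 0.60.

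No marker gene of inflammatory cells passed. The 16 measured neutrophil genes had a median of -0.01 (0.67 in the single knockout), with 0 past the threshold and 0 at an unadjusted p under 0.05, and list means of 4.57 to 4.74 in both groups. Its largest difference was that of Lrg1, at -0.31 (limma adjusted p = 0.788), and S100a9, the partner of S100a8, differed by 0.23 (limma adjusted p = 0.944). The fit of all arrays is wide for both, with SEs of 0.33 for Lrg1 and 0.69 for S100a9. With only the arrays compared these SEs were 0.11 and 0.12. The 95% intervals there were -0.55 to -0.07 for Lrg1 and -0.03 to 0.50 for S100a9. Under the alternative fits 0 neutrophil genes passed, with 0 to 2 lower and 0 higher at an unadjusted p under 0.05. For 18 monocyte and macrophage genes the median was 0.01 (0.57 in the single knockout). At an unadjusted p under 0.05, 1 was higher and 1 lower (5.56% each, beside 6.12% and 4.63% of all genes). Mrc1, the mannose receptor of resident macrophages, differed by -0.44 (limma adjusted p = 0.435) and the chemokine receptor gene Ccr2 by 0.35 (limma adjusted p = 0.706).

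Lymphocyte genes did not pass either. The 20 T and cytotoxic lymphocyte genes had a median of -0.05, with Cd3d at -0.52 (limma adjusted p = 0.367) and Cd3g at 0.33 (limma adjusted p = 0.713), subunits of 1 receptor complex that differed in opposite directions. The 17 B and plasma cell genes had a median of 0.15 and wide arrays. Cd79a, part of the B cell receptor, was at 5.77, 7.63, 7.58, 7.67 and 7.57 against 7.39, 6.84, 7.17, 6.63 and 5.22, so that array 88 and floxed array 119 were both low. Prdm1, the plasma cell factor, differed by 0.48 (limma adjusted p = 0.697). In the list of 25 acute cytokines and chemokines the median was -0.08. At an unadjusted p under 0.05, 2 (8.0%) were lower, beside 4.63% of all genes, and 0 higher. The neutrophil chemoattractant gene Cxcl5 was at 7.42 in double knockout array 112 and from 4.49 to 4.96 in the others, with floxed arrays from 4.56 to 4.72. The cytokine gene Osm differed by -0.37 (limma adjusted p = 0.683).

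Among 23 inflammasome and pyroptosis genes the median was -0.05. Casp4, the sensor of cytosolic lipopolysaccharide known in mice as caspase-11, differed by 0.41 (limma adjusted p = 0.403) and Nlrp3 by -0.33 (limma adjusted p = 0.851). The 22 antimicrobial and epithelial stress genes had a median of 0.14 (0.69 in the single knockout), with Pla2g2a and Duoxa2 the largest. Medians were 0.11 for 13 repair and fetal-like epithelial genes, 0.04 for 16 NFkB subunits and inhibitors, 0.06 for 13 nitric oxide and arginine genes, 0.11 for 15 genes of ER stress and amino acid response, and -0.01 for 15 p53 and DNA damage genes. No member of these 5 lists passed. In the nitric oxide and arginine list 3 (23.1%) were higher at an unadjusted p under 0.05, beside 6.12% of all genes. Under the alternative fits 2 to 4 were higher at that p. In the p53 and DNA damage list 2 (13.3%) were lower and 0 higher at that p, beside 4.63% and 6.12% of all genes. They were Eda2r at -0.48 (limma adjusted p = 0.218) and Trp53inp1 at -0.37 (limma adjusted p = 0.417), both without overlap. Under the alternative fits 1 to 2 of that list were lower.

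**Figure D5:**
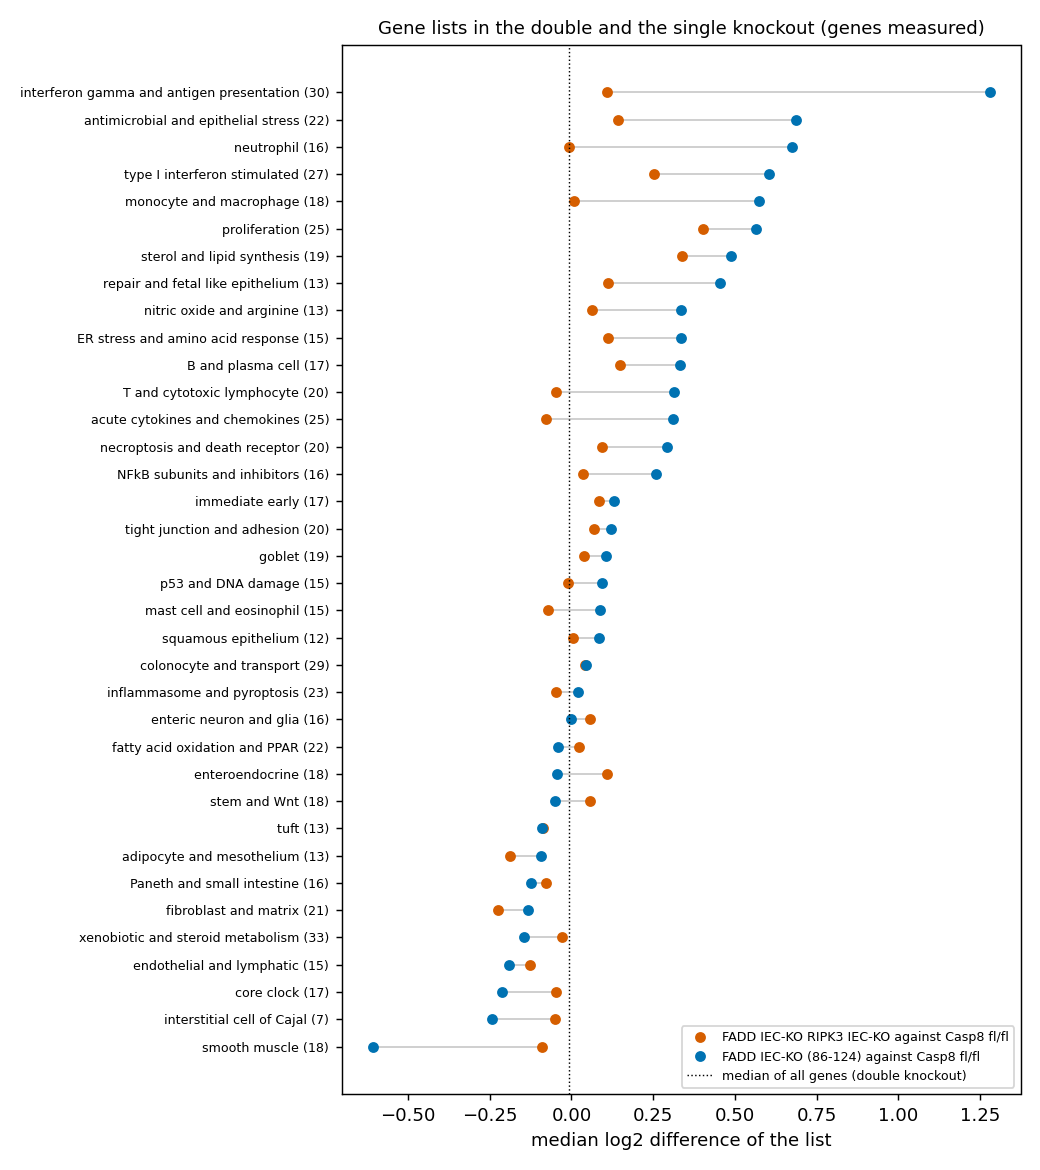
Median log2 difference (horizontal axis) of the measured members of 36 gene lists (number measured in parentheses), for the double knockout (orange) and the single knockout (blue) against the same Casp8 fl/fl arrays, with the median of all genes as a dotted line. Interferon-gamma genes lie at 0.11 and 1.28, smooth muscle genes at -0.09 and -0.61, and proliferation genes at 0.40 and 0.56.

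Markers of the epithelial lineages came next, and none of them passed. Of 29 colonocyte and transport genes, 0 passed in limma, and 8 (27.6%) were higher, beside 6.12% of all genes, and none lower at an unadjusted p under 0.05, with a median of 0.04. Under the alternative fits 4 to 8 were higher at that p. Beside Aqp4, the largest was Cdx2, the intestinal identity factor, at 8.09, 7.45, 7.29, 7.93 and 8.02 against 7.24, 7.92, 6.39, 7.22 and 6.35, a difference of 0.73 with overlap (limma adjusted p = 0.444). The keratins Krt20, Krt19, Krt18 and Krt8 of the epithelial cytoskeleton, named after their values were seen, differed by 0.30, 0.25, 0.26 and 0.13, and none passed. The 19 goblet cell genes had a median of 0.04, and its largest difference was that of Guca2a, at 0.52 (limma adjusted p = 0.493).

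The 18 enteroendocrine genes had a median of 0.11. Chgb, a granule protein of hormone-secreting cells, was at 7.61, 7.57, 7.66, 7.63 and 7.46 against 6.98, 7.12, 6.93, 7.23 and 7.20, without overlap, and missed at 0.49 (limma adjusted p = 0.129). Neurog3, of the same list, differed by 0.25 (limma adjusted p = 0.536). The lipid receptor gene Ffar4, of the goblet cell list, differed by -0.25 (limma adjusted p = 0.690) and Sh2d6, a tuft cell gene, by -0.40 (limma adjusted p = 0.326). Medians were -0.09 for 13 tuft cell genes, 0.06 for 18 stem cell and Wnt genes, 0.07 for 20 tight junction and adhesion genes and 0.00 for 12 squamous genes, with no member past the threshold. At an unadjusted p under 0.05, 2 tuft cell genes (15.4%) were lower, beside 4.63% of all genes, and 0 higher. Of 16 Paneth and small intestine genes the median was -0.08, with Lyz1 at 0.41 (limma adjusted p = 0.530) and Defa24 at -0.38 (limma adjusted p = 0.378). In that list 2 (12.5%) were lower and 0 higher at an unadjusted p under 0.05.

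Muscle and stroma were read because the tissue holds them. The 18 smooth muscle genes had a median of -0.09 with 0 past the threshold and 0 at an unadjusted p under 0.05, while in the single knockout 7 were lower with a median of -0.61. Casq2, a calcium store protein of muscle, was at 6.88, 7.21, 6.93, 6.72 and 6.79 against 7.35, 7.38, 7.01, 6.79 and 7.18, a difference of -0.24 (limma adjusted p = 0.814). Hspb6, a small heat shock protein of muscle, differed by -0.17 (limma adjusted p = 0.831).

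All 21 fibroblast and matrix genes had a difference below 0, with a median of -0.22, and 0 passed in limma. At an unadjusted p under 0.05, 4 (19.0%) were lower beside 4.63% of all genes, and under the alternative fits 1 to 8 were. Sparc, a matrix glycoprotein, was at 10.76, 11.02, 10.60, 10.65 and 10.51 against 11.07, 11.29, 11.03, 11.41 and 10.80, a difference of -0.41 with overlap (limma adjusted p = 0.379). The collagen gene Col3a1 was at 10.09, 10.37, 9.99, 10.01 and 9.97 against 10.49, 10.58, 10.57, 10.57 and 10.07, a difference of -0.37 (limma adjusted p = 0.401). Against Fadd fl/fl the median was -0.34, with 11 members lower at an unadjusted p under 0.05 (4.95% of all genes there). This fibroblast and matrix shift and that of the proliferation genes moved in opposite directions in the same arrays, and its part in the other results was not tested.

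The remaining lists had no member past the threshold. Medians were -0.13 for 15 endothelial and lymphatic genes, 0.06 for 16 enteric neuron and glia genes, -0.05 for 7 genes of interstitial cells of Cajal, -0.19 for 13 adipocyte and mesothelium genes, -0.07 for 15 mast cell and eosinophil genes, -0.03 for 33 xenobiotic and steroid genes and 0.02 for 22 fatty acid oxidation and PPAR genes. The 17 core clock genes had a median of -0.05 and the 17 immediate early genes 0.09. A clock score of core clock genes (on the log2 scale) ran from -0.65 to 1.60 in the double knockout and from -1.10 to 1.90 in Casp8 fl/fl.

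The chromosomal surroundings of the targeted genes were read because the double knockout and the control carry different modified loci. Among 58 tested neighbours of Fadd on chromosome 7, 100 of Ripk3 on chromosome 14 and 100 of Casp8 on chromosome 1 (up to 50 on either side), 0 passed in limma. At an unadjusted p under 0.05, 5 (8.62%), 12 (12.0%) and 7 (7.0%) differed in either direction, beside 10.7% of all genes.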

How the data were processed

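Colon RNA (100 ng per the labels) was hybridised to 1 array per sample. Each deposited value is the log2 signal of a probe set, which the authors made with Affymetrix Expression Console and Transcriptome Analysis Console, per the submitters' processing notes. The sources used here give neither versions nor algorithm. Over all probe sets, the medians of the 50 arrays ran from 6.41 to 6.47, which fits values already normalized between arrays. Of 22142 probe sets, 19527 carried 1 symbol in the platform annotation and 2615 none. Where genes had several, the probe set with the highest mean was kept (33 dropped), which left 19494 genes.

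A linear model with 1 mean for each of 10 groups of 5 arrays (genotype and title-number series) was fitted with limma 3.58.1 in R 4.3.3 to all 50 arrays. It left 40 residual degrees of freedom, and it used empirical Bayes moderation and Benjamini-Hochberg adjustment over the 19494 genes. Genes passed at an adjusted p under 0.05. SEs and intervals come from this fit. The procedure was tested on simulated data.

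The members and lists were chosen with earlier results of these data known. Genes named were the targeted and sensor genes, up to 10 rises and 10 falls that passed without overlap, the 12 largest rises in FADD IEC-KO of the other number series, and up to 2 members of a list that had none past the threshold. Other names are marked as chosen after their values were seen. Lists carry counts and medians with no set test. Promoter windows come from RefSeq, and 13 of the 15 genes that passed had 1.

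Alternatives were a fit of the arrays compared or of the 20 arrays with title numbers 86 to 124, group variance weights, quantile normalization, leaving out the dimmest 40% of genes, moderation with an intensity trend or robust to outliers, covariates for sex (from Kdm5d, Eif2s3y and Uty) and for a clock score (mean of Arntl, Npas2 and Clock minus mean of Ciart, Nr1d1, Nr1d2, Per2, Per3, Tef and Dbp), all probe sets with a symbol, and leaving out each array. Testing probe sets without a symbol, and weights with trend, were added after the data were seen. For lists, the lowest count of members higher at an unadjusted p leaves out the fit without the dimmest 40% of genes, which tested 11697 genes.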

Additional observations from a re-analysis of the deposited data

Results flagged for a closer look

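Of 208 groups of 5 arrays tested, 12 (5.77%) had an array far from the others, and chance gives about 1 in 20. In the double knockout, array 112 was high for Clca4b (9.82, next 7.65) and Cxcl5 (7.42, next 4.96). Array 88 was low for Cd79a (5.77, next 7.57) and for the mean of the B and plasma cell list (5.78, next 6.39), and high for the mean of the immediate early list (8.26, next 7.91). Array 93 was low for Guca2a (10.44, next 11.13) and array 113 for Osm (2.6, next 3.53). In Casp8 fl/fl, array 98 was low for Defa35 (5.3, next 5.67) and high for Hells (5.91, next 5.54). Array 91 was low for Psmb8 (6.53, next 6.9), and array 119 was low for Col3a1 (10.07, next 10.5) and high for the mean of the inflammasome and pyroptosis list (8.24, next 8.16).

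Signal also appeared in probe sets that carry no gene symbol and enter no comparison above. Of the 2615, 4 passed when all 22142 were tested. Probe sets TC1400001605.mm.2, TC1400001609.mm.2 and TC1400001613.mm.2 were higher in the double knockout by 0.87, 0.87 and 0.92 log2 units (limma adjusted p = 3.41e-04, 3.41e-04 and 1.45e-04). They are not separate results, since any pair of the 3 correlated at 0.997 or more over the 50 arrays. Their IDs place them on chromosome 14, which also holds Ripk3, and their positions were not used here. TC1400001605.mm.2 ran from 10.72 to 11.15 in the double knockout and from 9.92 to 10.32 in Casp8 fl/fl, without overlap. It ran from 10.22 to 10.38 in Fadd fl/fl and from 10.35 to 10.55 in the single knockout, and in CASP8 IEC-KO Mlkl -/- it had a median of 11.1. TC0600003102.mm.2 was lower, by -0.51 (limma adjusted p = 0.0358).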

How the results depend on the processing

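The double knockout against Casp8 fl/fl had 9 genes higher and 6 lower. With only the arrays compared, 3 were higher and 1 lower, of which Fadd and Tuba4a were among the 15, and with only the 20 arrays of title numbers 86 to 124, 1 was higher and 2 lower. Leaving out single arrays gave 0 to 12 higher and 1 to 6 lower. Fadd passed in all 21 alternatives, and no result reversed. Of the 80 further genes named by the rule none passed in any of them, while Chaf1b, Uhrf1 and Tubb4b, named after their values were seen, passed in some. The single knockout against Casp8 fl/fl had 2154 genes, against 787 with only the arrays compared, 1196 with the 20 arrays, 1430 with group variance weights, and 1356 (without FADD IEC-KO array 117) to 2602 when single arrays were left out. The double against the single knockout had 147 genes, against 22 with only the arrays compared, 12 with the 20 arrays, 276 without the dimmest 40% of genes, 63 with group variance weights, and 24 to 411 when single arrays were left out. The cause of these differences was not tested, apart from the fewer arrays in some fits. No paired analysis was possible because the groups compared share no title number.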
